A study of Mus musculus with 15 samples.

Results

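The 33 genes described here encode the enzymes of cholesterol and fatty acid synthesis with their regulators, and were read in bone marrow of mice with acute myeloid leukaemia (AML) and in 2 kinds of normal marrow. They were chosen by gene symbol from a table of 38315 genes, and all 33 were found and passed the filter on low values. They comprise 5 regulators of sterol synthesis, 18 sterol synthesis enzymes, 1 sterol carrier, 6 fatty acid enzymes and 3 genes of the liver X receptor (LXR) programme. Total RNA of 15 marrow samples was sequenced in bulk. The leukaemic group held 7 marrows of mice carrying NUP98-NSD1 and FLT3-ITD, a fusion joining a nuclear pore protein to a histone H3 lysine methyltransferase, and an activating internal duplication of a growth factor receptor kinase. The controls were 4 whole marrows and 4 lineage-negative marrows, both from wild-type mice. Lineage-negative marrow has been depleted of cells bearing surface antigens of mature blood lineages. Age, sex, strain background, the promoters driving the transgenes and any pooling of mice are not given in the sources used here. The labels do not say whether samples of a group came from separate animals, so p-values measure the spread between these samples only.

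Cells make cholesterol from acetyl-CoA through mevalonate, squalene and lanosterol, and fatty acids from the same acetyl-CoA through malonyl-CoA. When membrane sterol is scarce, SCAP escorts the precursors of SREBP-1 and SREBP-2 from the endoplasmic reticulum to the Golgi, where proteases release the active factors. When sterol is plentiful, INSIG proteins hold SCAP back, and oxidised sterols activate LXRs, which promote sterol export and, through SREBP-1, fatty acid synthesis. SREBPs act at promoters together with NF-Y, which binds the CCAAT box, and with SP1, which binds GC boxes.

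Promoter sequences from RefSeq (GRCm38.p6) were found for 27 of the 33 genes, and the 250 bases before each start were searched on both strands. The CCAAT box occurred in 20 of these 27 genes, or 74.1%, against 37.5% of 27025 genes searched in the same way. The GC box GGGCGG occurred in 21 genes (77.8%, against 35.4%) and the E-box CACGTG in 5 genes (18.5%, against 6.86%). A sterol response element of the form TCACNCCAC occurred in 1 gene, Hmgcs1 (3.70%, against 1.22%). A gene with several starts counted once if any of its windows held the motif, and a match is a run of letters, not a measured binding site. The 4 windows below belong to 2 sterol genes called higher in AML than in lineage-negative marrow (Mvd and Sc5d), to the gene with the sterol response element (Hmgcs1) and to the fatty acid gene called lower there (Fasn). They are written 5′ to 3′ on the gene's strand and end at the base before the start. Capitals mark CCAAT boxes on either strand, as CCAAT or ATTGG, and also the E-box in Sc5d and the sterol response element in Hmgcs1.
Mvd, chr8:122443423-122443672, minus strand: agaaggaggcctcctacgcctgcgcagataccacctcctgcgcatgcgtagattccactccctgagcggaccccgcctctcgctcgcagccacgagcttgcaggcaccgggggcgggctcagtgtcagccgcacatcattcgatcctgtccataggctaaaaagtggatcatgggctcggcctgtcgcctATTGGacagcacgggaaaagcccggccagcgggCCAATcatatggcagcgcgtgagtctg
Sc5d, chr9:42264301-42264550, minus strand: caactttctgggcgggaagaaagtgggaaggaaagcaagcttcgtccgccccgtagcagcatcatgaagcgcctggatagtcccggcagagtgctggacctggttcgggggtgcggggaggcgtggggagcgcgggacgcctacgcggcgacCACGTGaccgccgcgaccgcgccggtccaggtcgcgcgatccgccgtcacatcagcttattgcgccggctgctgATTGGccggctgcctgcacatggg
Hmgcs1, chr13:119690101-119690350, plus strand: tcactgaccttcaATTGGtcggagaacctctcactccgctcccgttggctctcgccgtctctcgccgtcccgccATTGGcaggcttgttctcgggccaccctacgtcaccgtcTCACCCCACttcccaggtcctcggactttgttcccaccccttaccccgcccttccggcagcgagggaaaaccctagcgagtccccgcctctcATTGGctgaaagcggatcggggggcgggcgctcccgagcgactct
Fasn, chr11:120824548-120824797, minus strand: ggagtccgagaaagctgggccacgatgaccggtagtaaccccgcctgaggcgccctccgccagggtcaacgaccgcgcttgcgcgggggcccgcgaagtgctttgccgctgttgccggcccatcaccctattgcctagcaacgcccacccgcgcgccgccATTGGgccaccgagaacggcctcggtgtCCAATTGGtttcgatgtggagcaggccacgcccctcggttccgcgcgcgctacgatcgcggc
The CCAAT boxes of Mvd began 60 and 27 bases before the start, and that of Sc5d 24 bases before it. Hmgcs1 had 3 CCAAT boxes, beginning 237, 176 and 45 bases before the start, with its sterol response element between them at 137 bases. In Fasn an inverted box began 90 bases before the start, and a pair of boxes on opposite strands, at 62 and 59 bases, shared bases with each other.

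Values are normalized counts, meaning read counts divided by a size factor for each library. Whole marrow libraries were the shallowest, at an estimated 11.4 to 17.2 M reads. The AML libraries held 20.3 to 35.1 M and the lineage-negative ones 20.3 to 28.1 M. On the deposited scaling whole marrow was shifted as a group against the others, and the cause was not tested. The 18941 genes tested had a median log2 difference of 0.67 when AML was set against whole marrow. That of lineage-negative against whole marrow was 0.59, and that of AML against lineage-negative marrow 0.02. After rescaling by trimmed mean of M values (TMM) these medians were −0.01, −0.09 and 0.03. Genes listed at 0 made up 7.12% to 15.7% of the table in whole marrow libraries. They made up 23.6% to 41.4% in AML libraries and 35.7% to 41.0% in lineage-negative libraries. Each comparison with whole marrow is therefore given on both scalings, while AML against lineage-negative marrow hardly moves between them. A gene is called higher or lower at an adjusted p under 0.05 (limma, Benjamini-Hochberg over all genes tested) and at least a 2-fold difference. Counts at an unadjusted p under 0.05 are given without a share of all genes, so they cannot be set against one.

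Against whole marrow, 19 of the 33 genes were called higher in AML and 1, Scd1, lower, where 27.3% of all genes were called higher and 11.3% lower. The members' median log2 difference was 1.05, which is 0.37 above the median of all genes. With TMM scaling limma called 0 members higher, with 18 higher at an unadjusted p under 0.05, and 2 lower, Scd1 and Mylip (4.73% and 16% of all genes). At an adjusted p under 0.05 and any size, 13 members were then higher and 2 lower, against 16.9% and 20.9% of all genes. Against lineage-negative marrow, 4 members were called higher (Mvd, Msmo1, Sc5d and Nr1h3) and 1, Fasn, lower, on either scaling, where 17.7% of all genes were called higher and 12.5% lower. At any size of difference 12 members were higher and 7 lower there, against 23.5% and 21.6% of all genes. The share of members past the 2-fold limit against lineage-negative marrow was thus below that of all genes in both directions. At any size the share that was higher was above that of all genes, and the share that was lower was close to it. By overlap of the libraries, all AML values were above all whole marrow values for 19 members and below them for 0, where 35.8% and 7.88% of all genes did so. With TMM these were 8 and 2 members, against 10.9% and 15.1% of all genes. Against lineage-negative marrow 9 members were above and 7 below without overlap, where 17.0% and 17.6% of all genes did so. Overlaps are given below on the deposited scaling unless TMM is named. In bulk samples, a difference in the number of cells of a type and a difference in RNA per cell cannot be told apart.

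**Figure D1:**
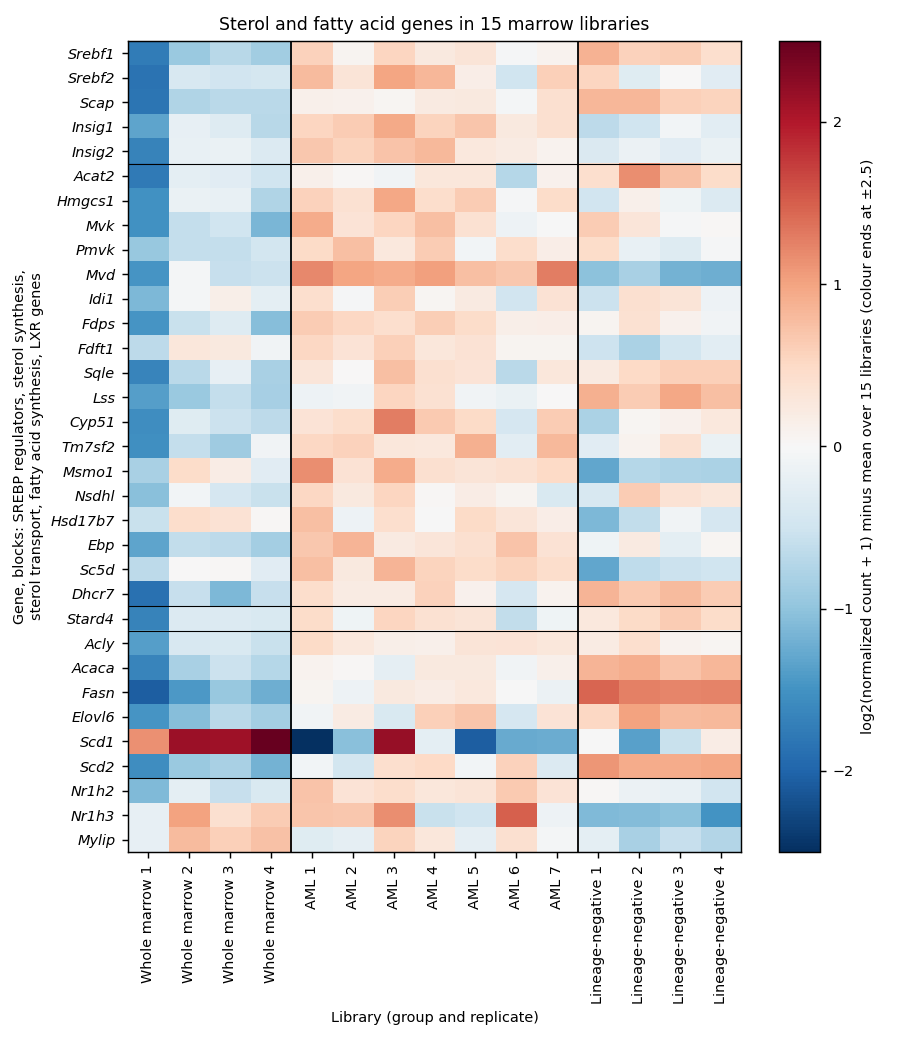
Each of the 33 genes (vertical axis, in blocks by role) in each of the 15 libraries (horizontal axis), as log2 of the normalized count plus 1 minus the gene's mean over all libraries. Mvd is high across the 7 AML libraries, Fasn and Scd2 across the 4 lineage-negative libraries, and Scd1 in whole marrow and AML replicate 3; whole marrow replicate 1 is low for most genes.

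All 5 regulators were called higher in AML than in whole marrow on the deposited scaling, where 27.3% of all genes were. With TMM limma called 0 of them. At an adjusted p under 0.05, 3 (Srebf1, Scap and Insig1) were then higher, where 16.9% of all genes were. At an unadjusted p under 0.05, 4 were higher. Of the 5, Insig1 and Insig2 were also higher than in lineage-negative marrow at an adjusted p under 0.05, and Scap was lower. There 23.5% of all genes were higher and 21.6% lower. Srebf1 (chr11:60199089-60222581) encodes SREBP-1, the factor best known for fatty acid genes. Its normalized count in AML ran from 1372 through a median of 1651 to 2071, against 414, 729, 858 and 763 in whole marrow and 2534, 2068, 2128 and 1858 in lineage-negative marrow. All AML libraries were thus above whole marrow, while the ranges of AML and lineage-negative marrow overlapped. AML differed by 1.32 ± 0.19 (SE) on the log2 scale from whole marrow (limma adjusted p = 1.79e-05; TMM 0.63, adjusted p = 0.00089) and by −0.35 ± 0.19 from lineage-negative marrow (limma adjusted p = 0.15). Srebf2 (chr15:82147181-82205379), the gene of the sterol-directed factor SREBP-2, had 1431, 3055 and 4021 as lowest, median and highest normalized counts in AML. Whole marrow had 567, 1542, 1463 and 1487, and lineage-negative marrow 2960, 1638, 2037 and 1671. AML replicate 6 alone lay within the range of whole marrow. Srebf2 was called higher than in whole marrow on the deposited scaling (1.24 ± 0.29, limma adjusted p = 0.00122) but not with TMM (0.55, limma adjusted p = 0.0894), and the difference from lineage-negative marrow was 0.47 ± 0.29 (limma adjusted p = 0.21).

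Scap (chr9:110333288-110384950), the SREBP escort, was highest in lineage-negative marrow, with 2047, 2052, 1737 and 1693. In AML it ran from 1109 through 1254 to 1520, and in whole marrow it was 325, 681, 718 and 718. The 3 groups did not overlap. AML was 1.14 ± 0.20 above whole marrow on the log2 scale (limma adjusted p = 8.08e-05; TMM 0.45, adjusted p = 0.00347) and 0.55 ± 0.20 below lineage-negative marrow (log2 difference −0.55, limma adjusted p = 0.0287). Insig1 (chr5:28071363-28078662), itself a classical SREBP target that retains SCAP, was 919, 1141 and 1501 at its lowest, median and highest in AML. It was 311, 675, 619 and 483 in whole marrow and 497, 552, 738 and 649 in lineage-negative marrow, so every AML library was above all 8 normal ones. Its log2 difference was 1.20 ± 0.20 against whole marrow (limma adjusted p = 6.74e-05; TMM 0.51, adjusted p = 0.00953) and 0.94 ± 0.20 against lineage-negative marrow (limma adjusted p = 0.000813), just under the 2-fold limit of a call. Insig2 (chr1:121304353-121332589), which encodes the other SCAP anchor, had 210.3, 290.2 and 346 in AML, 61.0, 173, 176 and 154 in whole marrow and 153, 177, 161 and 174 in lineage-negative marrow. Its AML libraries too were above all 8 normal ones, though with TMM they overlapped whole marrow, with log2 differences of 1.07 ± 0.26 (limma adjusted p = 0.00151; TMM 0.38, adjusted p = 0.117) and 0.72 ± 0.26 (limma adjusted p = 0.0288). Insig1 and Insig2 kept a similar proportion in every group: the ratio of their counts was 3.29 to 5.31 in AML, 3.13 to 5.10 in whole marrow and 3.11 to 4.57 in lineage-negative marrow.

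Of 18 sterol genes, 7 were higher in AML than in lineage-negative marrow at an adjusted p under 0.05 (Hmgcs1, Mvd, Fdft1, Msmo1, Hsd17b7, Ebp and Sc5d), where 23.5% of all genes were. The 2 that were lower (Acat2 and Lss) are a smaller share than the 21.6% of all genes. Of the 7, 3 passed the 2-fold limit. The median log2 difference of the 18 was 0.41, beside 0.02 for all genes. Against whole marrow 10 of the 18 were called higher on the deposited scaling (27.3% of all genes), with a median of 1.03, beside 0.67 for all genes. With TMM limma called 0 of them, and the median was 0.34. At an unadjusted p under 0.05, 8 were then higher and 2 lower. At an adjusted p under 0.05, 6 were higher (Hmgcs1, Mvk, Mvd, Fdps, Ebp and Dhcr7), where 16.9% of all genes were.

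Mvd, on chromosome 8 at 122433601 to 122443422, encodes the decarboxylase that turns mevalonate diphosphate into isopentenyl diphosphate, the building block of all isoprenoids. Its normalized counts in AML replicates 1 to 7 were 573, 498, 479, 511, 419, 399 and 612. Whole marrow had 88.9, 241, 168 and 172, and lineage-negative marrow 123, 142, 110.2 and 107. The lowest AML library lay well above the highest normal one, and the normal groups overlapped. The means were 499 ± 76.5 (SD, n = 7), 167 ± 62.3 (SD, n = 4) and 120.4 ± 15.8 (SD, n = 4). AML was 4.10-fold higher than lineage-negative marrow (log2 difference 2.04 ± 0.23, limma adjusted p = 5.22e-07) and 3.11-fold higher than whole marrow (1.64 ± 0.23, limma adjusted p = 1.11e-05). With TMM the latter was 0.95 (limma adjusted p = 0.000125), just short of the 2-fold limit. Mvd was the 1 member called higher than both normal groups on the deposited scaling, where 7.20% of all genes were. With TMM limma called 0 members against both (2.82% of all genes), with 7 higher at an unadjusted p under 0.05.

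Msmo1 (chr8:64718139-64733792) encodes the oxidase that starts the removal of the C4 methyl groups from lanosterol-derived sterols. Its count in AML ran from 682.4 through 714 to 1207, against 308, 745, 617 and 443 in whole marrow and 221, 330.5, 316 and 312 in lineage-negative marrow. AML and whole marrow overlapped, and lineage-negative marrow was below every AML library. Msmo1 had a log2 difference of 1.47 ± 0.23 against lineage-negative marrow (limma adjusted p = 3.26e-05). Against whole marrow it was 0.69 ± 0.23 on the deposited scaling (limma adjusted p = 0.014) and −0.0034 with TMM (limma adjusted p = 0.991). Sc5d, on chromosome 9 at 42251595 to 42264256, encodes the C5 desaturase near the end of the pathway. Its values are given because it was called, a choice made after they were seen. In AML it ran from 607 through 749 to 923, in whole marrow it was 324, 513, 519 and 420.2, and in lineage-negative marrow 206, 329.6, 349.9 and 362. All AML libraries were above all normal ones, and with TMM they overlapped whole marrow. The log2 difference was 1.30 ± 0.19 against lineage-negative marrow (limma adjusted p = 1.77e-05) and 0.78 ± 0.19 against whole marrow (limma adjusted p = 0.00185; TMM 0.08, adjusted p = 0.704).

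Ebp (chrX:8185329-8193512) encodes the sterol isomerase that shifts the ring double bond. It had 855, 966 and 1315 as lowest, median and highest counts in AML, 291, 474, 464 and 404 in whole marrow and 672, 851, 611 and 752 in lineage-negative marrow. The lowest AML library lay just above the highest lineage-negative one. The log2 difference was 1.36 ± 0.18 against whole marrow (limma adjusted p = 6.39e-06; TMM 0.67, adjusted p = 0.000701) and 0.53 ± 0.18 against lineage-negative marrow (limma adjusted p = 0.0207). Hmgcs1 (chr13:119690379-119708260), the synthase that commits acetyl units to mevalonate, was 0.69 ± 0.23 above lineage-negative marrow (limma adjusted p = 0.0218) and 1.14 ± 0.23 above whole marrow (limma adjusted p = 0.000388; TMM 0.45, adjusted p = 0.0468). Insig1, Hmgcs1, Mvd, Ebp and Nr1h2 were the 5 members higher in AML than each normal group at an adjusted p under 0.05 with TMM, where 7.76% of all genes were. For 6 members (Insig1, Insig2, Mvd, Ebp, Sc5d and Nr1h2) every AML library was above all 8 normal ones on the deposited scaling, a pattern seen in 8.56% of all genes. With TMM this held for 4 of them (Insig1, Mvd, Ebp and Nr1h2), against 4.16% of all genes. Both comparisons share the AML libraries.

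The thiolase gene Acat2 and the lanosterol synthase gene Lss were lower in AML than in lineage-negative marrow, by 0.69 ± 0.27 (log2 difference −0.69, limma adjusted p = 0.044) and 0.74 ± 0.20 (log2 difference −0.74, limma adjusted p = 0.00444). Fdft1, squalene synthase, and Hsd17b7, a sterol ketone reductase, were higher by 0.83 ± 0.20 (limma adjusted p = 0.00184) and 0.85 ± 0.24 (limma adjusted p = 0.0076). Fdft1 shares exonic bases with Ctsb on the opposite strand in the GRCm38 annotation, and the strand used in counting is not given in the sources used here, so reads of the pair are not separated. Srebf1, Scap, Hmgcs1, Idi1, Lss, Cyp51 and Elovl6 also share exonic bases with genes on the opposite strand, from 34 bases in Elovl6 to 985 in Scap. The kinases Mvk and Pmvk, the isomerase Idi1, the farnesyl diphosphate synthase Fdps, the epoxidase Sqle, the demethylase Cyp51 and the reductase Tm7sf2 lay between −0.27 (Sqle) and 0.58 (Cyp51) and did not pass. The dehydrogenase Nsdhl and the last reductase, Dhcr7, were at −0.05 and −0.56 and did not pass either (limma adjusted p = 0.892 and 0.0607). Fdps shares 1124 exonic bases with Gm43738 and Tm7sf2 shares 532 with Vps51, each on the same strand.

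**Figure D2:**
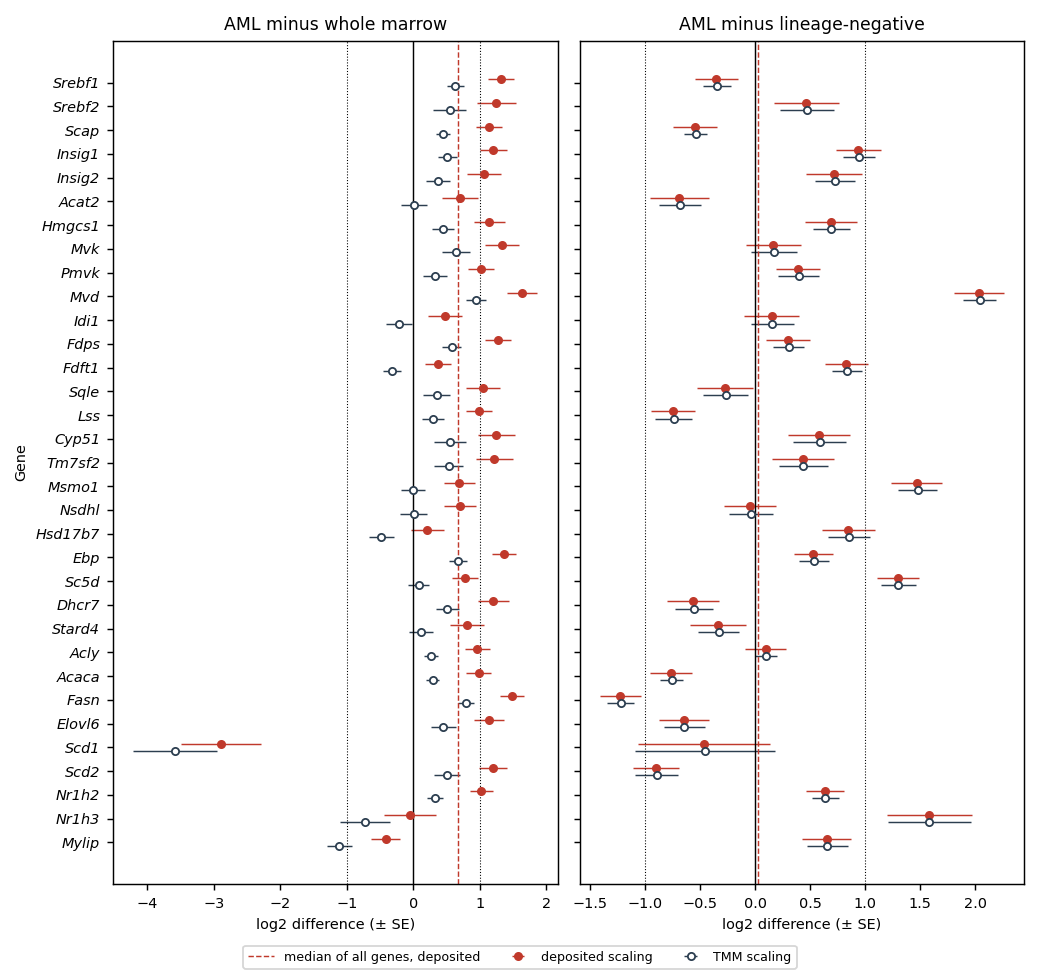
Log2 difference ± SE (horizontal axis) of each of the 33 genes (vertical axis) for AML against whole marrow (left) and against lineage-negative marrow (right), on the deposited scaling (filled) and with TMM (open). Dotted lines mark 2-fold, the dashed line the median of all genes, at 0.67 on the left. TMM moves the left panel to the left by a similar amount for each gene and hardly changes the right panel, where Mvd stands at 2.04 and Fasn at −1.23.

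Stard4, which encodes a soluble carrier that moves cholesterol between membranes, did not pass against lineage-negative marrow (−0.33 ± 0.26, limma adjusted p = 0.306). Against whole marrow it was 0.81 ± 0.26 higher (limma adjusted p = 0.00978), and 0.12 with TMM (limma adjusted p = 0.66).

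On the log2 scale, the AML means of 4 of the 6 fatty acid genes (Acaca, Fasn, Elovl6 and Scd2) lay between those of whole and lineage-negative marrow. These 4 were lower in AML than in lineage-negative marrow at an adjusted p under 0.05, where 21.6% of all genes were, and the list of 6 had a median log2 difference of −0.71, beside 0.02 for all genes. Against whole marrow 3 were called higher on the deposited scaling (Fasn, Elovl6 and Scd2) and Scd1 lower, where 27.3% and 11.3% of all genes were. With TMM limma called 0 of the 6 higher, with 5 higher at an unadjusted p under 0.05, and Scd1 lower. Fasn (chr11:120805846-120824547) encodes the synthase that builds palmitate. Its count in AML ran from 2672 through 3065 to 3539. In whole marrow it was 705, 1080.0, 1529.9 and 1262, and in lineage-negative marrow 8099, 7009.6, 6844 and 6961. The 3 groups were fully separate. AML was 2.34-fold lower than lineage-negative marrow (log2 difference −1.23 ± 0.19, limma adjusted p = 2.05e-05) and 2.80-fold higher than whole marrow (1.48 ± 0.19, limma adjusted p = 3.9e-06; TMM 0.79, adjusted p = 6.99e-05).

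Scd2 (chr19:44293674-44306864) encodes the stearoyl-CoA desaturase common outside liver and fat. It ran from 2289 through 2991 to 4647 in AML, and was 1063, 1648, 1773 and 1380.1 in whole marrow and 6731, 5922, 5922 and 6114 in lineage-negative marrow. No group overlapped another on the deposited scaling, and with TMM AML overlapped whole marrow. The log2 difference was −0.90 ± 0.21 against lineage-negative marrow (limma adjusted p = 0.00163) and 1.20 ± 0.21 against whole marrow (limma adjusted p = 9.62e-05; TMM 0.50, adjusted p = 0.0507). Acaca, the acetyl-CoA carboxylase gene, and Elovl6, the elongase gene, were −0.76 ± 0.19 (limma adjusted p = 0.00226) and −0.65 ± 0.23 (limma adjusted p = 0.024) against lineage-negative marrow. Elovl6 was 1.14 ± 0.23 above whole marrow (limma adjusted p = 0.00027; TMM 0.45, adjusted p = 0.0711). Acly, whose enzyme supplies cytosolic acetyl-CoA to both pathways, was 5942 ± 511 (SD, n = 7) in AML and 5570.3 ± 652 (SD, n = 4) in lineage-negative marrow, a log2 difference of 0.10 ± 0.19 (limma adjusted p = 0.704).

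Scd1 (chr19:44394455-44407879), the neighbouring desaturase gene and the main isoform of liver and fat, was the member that was lower than whole marrow on both scalings. AML replicates 1 to 7 had 30.5, 91.1, 855, 158, 44.4, 77.7 and 78.8. Whole marrow had 416, 828, 825 and 1125, and lineage-negative marrow 188, 73.1, 127 and 215. Replicate 3 of AML lay within the range of whole marrow and the other AML libraries below it. With TMM all AML libraries were below whole marrow, with AML replicate 3 at 781 and whole marrow replicate 1, the lowest, at 889. The log2 difference from whole marrow was −2.89 ± 0.60, a 7.40-fold lower level (limma adjusted p = 0.000436; TMM −3.58, adjusted p = 0.000274), and lineage-negative marrow was lower than whole marrow too (−2.43 ± 0.68, limma adjusted p = 0.00417; TMM −3.13, adjusted p = 0.0013). Between AML and lineage-negative marrow the difference was −0.46 ± 0.60 (limma adjusted p = 0.558).

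Of the 10 marker lists, B cell markers were highest in whole marrow and, within AML, in replicate 3, as Scd1 was. In other respects they differed from Scd1. Against lineage-negative marrow 5 of the 6 B cell markers were called higher in AML (17.7% of all genes), while Scd1 was not called. Sums of markers here and below are on the deposited scaling. The summed count of 6 B cell markers was 3787 to 8262 in whole and 301 to 541 in lineage-negative marrow. AML replicate 3, the highest for Scd1, had 6414, and AML replicate 1, the lowest for Scd1, had 491. AML replicate 2 had the next highest sum, 2921, with Scd1 at 91.1. None of the 6 was listed at 0 in all libraries of a group. The summed count of 7 adipocyte and stroma markers was 749 to 1521 in whole marrow, against 278 to 1169 in AML libraries and 109 to 816 in lineage-negative ones. AML replicate 3 had the lowest sum of this list within AML, 278, with Cxcl12 at 41.7 and Fabp4 at 174. Most of the sum in whole marrow was Cxcl12, at 617 to 1308. In lineage-negative replicates 2 and 4 most was Col1a1, at 722 and 418. The sum is therefore no measure of fat cells alone. Of the 4 genes of the list that passed the filter, limma called 0 lower than in whole marrow, and 2 with TMM. Adipoq, Plin1 and Lep were listed at 0 in 1, 5 and 6 of the 7 AML libraries and in 0 of the whole marrows. Plin1 and Lep were low in whole marrow, at 8.08 to 24.6 and 5.22 to 14.4. The mean count over olfactory and vomeronasal receptor genes was 7.14 to 13.5 there, against 0.465 to 3.81 in AML. Zeros in AML are therefore set beside whole marrow libraries with counts in more genes of all kinds. Fabp4, expressed in fat cells and macrophages, was 50.9 to 268 in AML and 57.4 to 126 in whole marrow. The part of these cells in the Scd1 result was not tested.

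**Figure D3:**
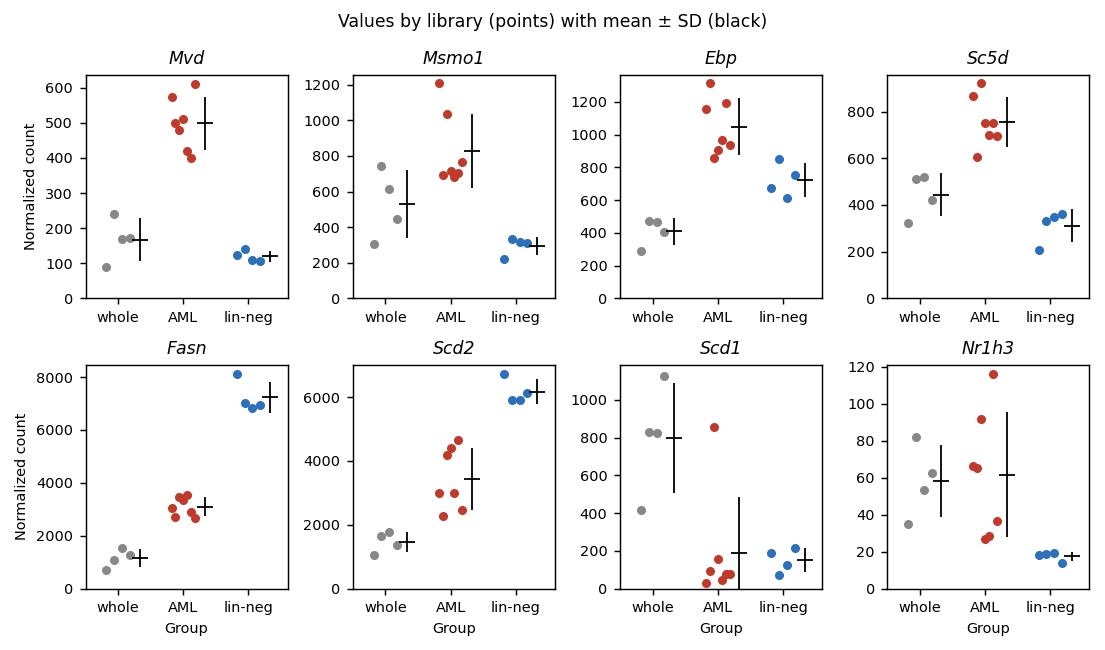
Normalized counts (vertical axes, from 0) of 8 genes by library in whole marrow (4), AML (7) and lineage-negative marrow (4); points are libraries on the deposited scaling, the black cross is the mean with ± SD, with bars that would pass below 0 ending there. AML is highest for Mvd, Ebp and Sc5d, intermediate for Fasn and Scd2, and low for Scd1 apart from 1 library at 855.

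All 3 LXR genes were higher in AML than in lineage-negative marrow at an adjusted p under 0.05, where 23.5% of all genes were. Nr1h2 (chr7:44549616-44553951) encodes LXR beta, the broadly expressed receptor. It ran from 1242 through 1287 to 1662 in AML, and was 473, 855, 676 and 776 in whole marrow and 1033, 922, 893 and 731 in lineage-negative marrow. Every AML library was above all 8 normal ones. The log2 difference was 0.63 ± 0.17 against lineage-negative marrow (limma adjusted p = 0.00553) and 1.02 ± 0.17 against whole marrow (limma adjusted p = 7.46e-05; TMM 0.33, adjusted p = 0.0417). Nr1h3 (chr2:91184061-91202834) encodes LXR alpha, known from macrophages and liver. Its counts were low: 66.2, 65.2, 91.9, 27.04, 28.3, 116 and 36.7 in AML replicates 1 to 7, 35.0, 81.7, 53.2 and 62.8 in whole marrow and 18.2, 18.5, 19.4 and 13.7 in lineage-negative marrow. A floor of 3 reads corresponds to 1.96 to 4.09 normalized counts, so all values were above it. AML was 3.00-fold higher than lineage-negative marrow (log2 difference 1.58 ± 0.39, limma adjusted p = 0.00232), without overlap, and −0.05 ± 0.39 against whole marrow (limma adjusted p = 0.925; TMM −0.73, adjusted p = 0.14).

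Mylip (chr13:45389742-45412022), an LXR target, encodes the ubiquitin ligase IDOL, which marks lipoprotein receptors for degradation. It had 537, 645 and 979 as lowest, median and highest counts in AML, 581, 1148, 999.7 and 1112 in whole marrow and 563, 381, 449 and 399 in lineage-negative marrow. Each range overlapped its neighbour on the deposited scaling. With TMM all AML libraries were below all whole marrow libraries. The log2 difference was 0.65 ± 0.22 against lineage-negative marrow (limma adjusted p = 0.0201) and −0.42 ± 0.22 against whole marrow (limma adjusted p = 0.101), where TMM gave −1.11 (limma adjusted p = 0.000157). Mylip was also lower in lineage-negative than in whole marrow (−1.07 ± 0.25, limma adjusted p = 0.000907; TMM −1.77). The summed count of 8 erythroid markers was 34264 to 78142 in whole marrow, 12533 to 14934 in lineage-negative and 2868 to 4665 in AML. That of 7 monocyte and macrophage markers was 28515 to 50318 in AML, 9105 to 20452 in whole and 7556 to 13851 in lineage-negative marrow. Neither the erythroid nor the monocyte and macrophage sum had the order of Mylip over the 3 groups, which was whole, AML, lineage-negative from high to low. By median sum, 3 lists did have this order. They were B cell (6004, 1085 and 382), neutrophil (374540, 368608 and 119051) and adipocyte and stroma (1278, 637 and 450). The remaining lists had other orders. The part of these cells in the LXR results was not tested.

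Acaca, Fasn, Elovl6 and Scd2 were called higher in lineage-negative than in whole marrow on both scalings. In lineage-negative against whole marrow, 12 members were called higher and 3 lower (Scd1, Nr1h3 and Mylip), where 33.1% of all genes were called higher and 17.2% lower. With TMM it was 6 higher and 8 lower (11% and 24.8% of all genes). Of the other fatty acid genes Scd1 was called lower on both. Fasn was 6.54-fold higher (2.71 ± 0.21, limma adjusted p = 1.86e-08; TMM 2.01). The sterol genes split with TMM: Lss and Dhcr7 were called higher, at 1.04 and 1.07, and Mvd, Fdft1, Msmo1, Hsd17b7 and Sc5d lower, at −1.09, −1.16, −1.48, −1.33 and −1.22. The summed count of 5 progenitor markers was 25339 to 32212 in lineage-negative marrow, 3827 to 9778 in AML and 2976 to 5199.8 in whole marrow. That of 8 cycling markers was 51587 to 69157, 24946 to 60408 and 31378 to 68573 in the same order. The part of cell composition in these differences was not tested.

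Ratios within a library do not depend on its size factor, and they set AML beside whole marrow in one respect and beside lineage-negative marrow in another. The log2 value of Fasn minus that of Mvd was 2.13 to 3.07 in AML, 2.16 to 3.18 in whole marrow and 5.62 to 6.03 in lineage-negative marrow. AML and whole marrow overlapped and lineage-negative marrow stood apart. The mean log2 value of the 5 fatty acid genes other than Scd1, minus that of the 18 sterol genes, was 1.85 to 2.45 in AML, 1.71 to 2.03 in whole marrow and 3.09 to 3.44 in lineage-negative marrow. With Scd1 included it was 0.907 to 1.68, 1.67 to 2.04 and 2.27 to 2.75. The ratio of Scd2 to Scd1 counts was 1.23 to 2.55 in whole marrow, 28.5 to 81.0 in lineage-negative marrow and 4.91 to 98.0 in AML, with a median of 31.3. Here AML overlapped lineage-negative marrow. Srebf2 counts were 1.04 to 2.19 times those of Srebf1 in AML, 1.37 to 2.12 in whole and 0.792 to 1.17 in lineage-negative marrow. Nr1h2 counts were 13.7 to 45.9 times those of Nr1h3 in AML, 10.5 to 13.5 in whole and 46.0 to 56.9 in lineage-negative marrow. These pairs were chosen after the group differences were known and carry no test.

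**Figure D4:**
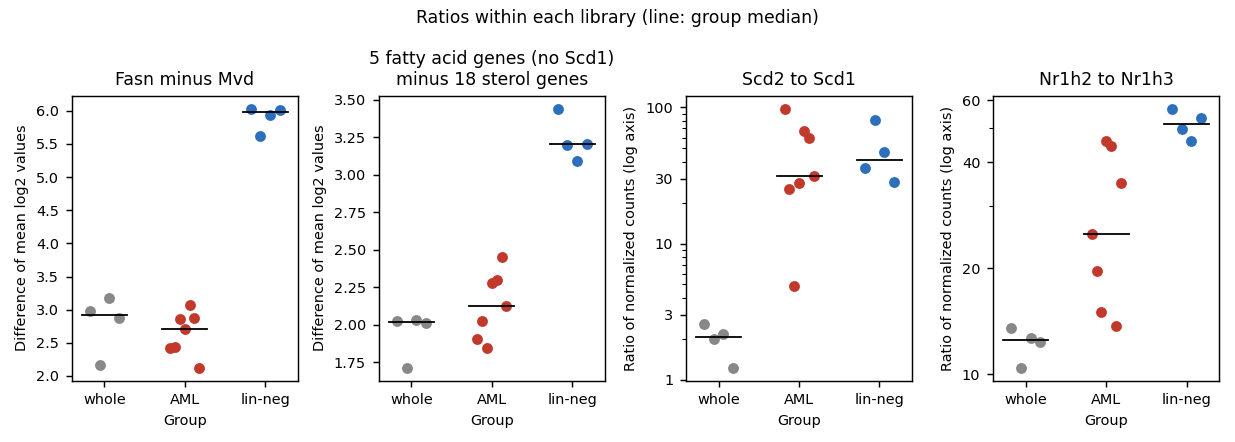
Within-library differences of log2 values (left pair of panels) and ratios of counts (right pair, log axes) in whole marrow (4 points), AML (7) and lineage-negative marrow (4), with the group median as a line. Lineage-negative marrow stands apart at 5.62 to 6.03 for Fasn minus Mvd, and whole marrow at 1.23 to 2.55 for Scd2 to Scd1.

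The AML libraries differed among themselves in a shared direction for many sterol genes. Replicate 6 was the lowest AML library for 12 of 18 sterol genes and for 18 of all 33 members, while it was the lowest for 22.7% of all genes. With TMM these were 8, 14 and 18.8%. Replicate 3 was the highest for 8 of 18 sterol genes and 13 of 33 members, against 14.9% of all genes. Replicate 6 also had the fewest genes listed at 0 of the AML libraries, 23.6%, and a mean of 3.81 normalized counts over 1452 olfactory and vomeronasal receptor genes, against 7.14 to 13.5 in whole marrow and 0.465 to 1.33 in the other AML libraries. The part of these features in its sterol values was not tested. Within AML the SD was 8.60% of the mean for Acly, 34.0% for Cyp51, 54.8% for Nr1h3 and 155% for Scd1.

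Per kilobase of exonic sequence, Acly and Scd2 had 2 of the 3 highest values among the members in every group. The length used is that of all annotated exons of a gene together, not of 1 transcript. It was 10787 bases for Lss and 5279 for Acly. A gene with annotated exons that its transcripts here do not use reads too low, so the order of genes is approximate. In AML the mean normalized count per kilobase was 1126 for Acly, 627 for Scd2, 453 for Ebp, 414 for Nr1h2 and 407 for Srebf2, and the lowest were Lss at 24.6 and Nr1h3 at 24.5. In lineage-negative marrow Scd2 (1129.6), Acly (1055) and Fasn (660.3) led. In whole marrow the leaders were Acly (596), Mylip (297) and Scd2 (268). Mvd ranked at 268 per kilobase in AML, 90.1 in whole and 64.8 in lineage-negative marrow.

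Other genes of the same pathways came from a list of 47, of which 45 could be tested. In AML 16 were called higher and 0 lower than in whole marrow by limma, where 27.3% and 11.3% of all genes were. The counts were 32 and 1 at an unadjusted p under 0.05, and 3 and 1 called with TMM. Against lineage-negative marrow 10 were called higher and 8 lower (10 and 7 with TMM), shares near the 17.7% and 12.5% of all genes. Their median log2 difference was 0.79 against whole and 0.07 against lineage-negative marrow, beside 0.67 and 0.02 for all genes. With TMM it was 0.097 against whole marrow, beside −0.01 for all genes. On the deposited scaling limma called 8 of them higher than both normal groups, as it did 7.20% of all genes. Cyp27a1, the sterol 27-hydroxylase, averaged 1314 ± 621 normalized counts over the AML libraries (SD, n = 7). The whole marrows averaged 159 ± 36.2 (SD, n = 4) and the lineage-negative marrows 93.4 ± 37.1 (SD, n = 4), with log2 differences of 2.88 and 3.70 (limma adjusted p = 7.28e-06 and 1.82e-07). Npc2, which hands cholesterol out of lysosomes, differed by 2.17 and 1.65 (limma adjusted p = 1e-06 and 1.11e-05). These genes were called against both groups with TMM as well. Soat1, which esterifies cholesterol (1.45 and 1.63), the endosomal carrier Stard3 (1.50 and 1.40), the lipid droplet coat Plin2 (1.48 and 1.24), the LXR partner Rxra (1.43 and 1.83), the sterol exporter Abcg1 (1.49 and 1.15) and the LXR-responsive Smpdl3a (1.62 and 2.81) were called against both on the deposited scaling only. Gpam, an acyltransferase of glycerolipid synthesis, was called lower than both with TMM only (−1.17 and −1.34, limma adjusted p = 1.11e-05 and 1.02e-06). Of 14 other fatty acid genes tested, 4 were called lower than in lineage-negative marrow, where 12.5% of all genes were: the acetyl-CoA synthetase gene Acss2 (−1.49), the desaturases Fads1 (−1.29) and Fads2 (−1.96) and the dehydratase Hacd3 (−1.01), named after their values were seen.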

How the data were processed

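Total RNA of 15 marrow samples was extracted with TRIzol and made into libraries by a stranded total RNA protocol, per the labels' protocols. The deposited values are a normalized signal: read counts per gene that the authors divided by one DESeq2 size factor per library (poscounts, per the file name). Partek, STAR, DESeq2 and mm10 appear in the submitters' processing notes, with no versions. The counting tool, strand setting and annotation are not given in the sources used here, so reads of overlapping genes and of close paralogs are not separated. Gene starts in the table mostly differ from GRCm38 (861 of 38066 shared identifiers have the same start), so coordinates come from GENCODE M21 (GRCm38), in which all 33 members matched by identifier. Groups and replicate numbers came from the sample titles.

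Genes with at least 10 normalized counts in at least 4 libraries were kept (18941 of 38315). One limma fit (3.58.1, R 4.3.3) of 3 group means on log2(value + 1) gave two-sided tests with a mean-variance trend, Benjamini-Hochberg adjusted over the genes kept. A log2 difference on this scale understates the change of low genes. Errors printed after ± are SE for log2 differences and SD for means. The procedure was tested on simulated data. Factors of the trimmed mean of M values (TMM) were computed on the deposited values by a function written in R. Between 81.7% and 87.1% of low values fell on multiples of a library's smallest step (tolerance 0.02 of a step), so whole reads were not recovered and no count test was run. Depth was estimated as the total divided by that step. The floor of 3 reads covers counting error only, while the SE and SD come from the spread between libraries.

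Members, lists, tests and alternatives were chosen with earlier results of these data known. Values by library are given for the regulators, the LXR genes, 3 sterol genes and 3 fatty acid genes. These sterol and fatty acid genes had the largest difference of their list in a comparison with AML. For most of these genes the AML values are given as lowest, median and highest. Other pathway genes are named when called in 1 direction against both normal groups. Cell type markers came from 10 lists: erythroid, neutrophil, monocyte and macrophage, B cell, T cell, progenitor, cycling, adipocyte and stroma, megakaryocyte, and eosinophil and basophil. Alternatives were TMM and quantile scaling, pseudocounts of 0.1 and 5, other filters, pairs of groups alone, a replicate block, array weights and leaving out each library. A fit with TMM and without whole marrow replicate 1, and one without AML replicates 5 and 6, were chosen after seeing the data.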

Additional observations from a re-analysis of the deposited data

Results flagged for a closer look

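Each member's values were checked within each group for a library far from the others, by Dixon's ratio. Of 99 groups of values, 10 had such a library, and chance alone gives about 1 in 20. In whole marrow it was replicate 1 in all 6 cases. Srebf2 was 567 there, against 1463 to 1542 in the other whole marrows, and Scap was 325, against 681 to 718. Insig2 was 61.0, against 154 to 176, and Acat2 was 99.4, against 242 to 289.7. Stard4 was 186, against 459.8 to 470.3, and Acly was 1863, against 3318 to 3721. This library also had the lowest total, 10221001 normalized counts, and the fewest genes listed at 0, 7.12%. In lineage-negative marrow the library apart was replicate 1 in all 3 cases: Msmo1 was 221, against 312 to 330.5, Sc5d was 206, against 329.6 to 362, and Fasn was 8099, against 6844 to 7009.6. In AML it was replicate 6, where Acat2 was 208, against 322 to 418 in the others.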

How the results depend on the processing

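The counts against whole marrow rested on the scaling and on 1 library. Members called higher in AML than whole marrow went from 19 to 0 with TMM, 0 with quantile scaling, 0 with TMM and without whole marrow replicate 1, and 9 with array weights. Leaving out 1 library at a time gave 7 to 22, with 7 when whole marrow replicate 1 was left out. Members called lower there went from 1 to 2 with TMM, 2 with quantile scaling and 2 with TMM without that library (1 to 1 when 1 library was left out). Against lineage-negative marrow 4 to 6 were called higher and 1 to 1 lower when 1 library was left out, and quantile scaling gave 2 lower. In lineage-negative against whole marrow, members called higher were 6 with TMM, 7 with quantile scaling and 4 with TMM without that library (10 to 13 when 1 library was left out), and members called lower were 8, 8 and 8 (2 to 4). Members called higher than both normal groups were 0 with TMM, 0 with quantile scaling and 0 with TMM without that library, and 1 to 2 when 1 library was left out, with 2 without lineage-negative replicate 3. Without AML replicates 5 and 6, 20 were higher than whole and 4 than lineage-negative marrow. Genes not called in the comparison changed sign as follows. With TMM, AML against whole marrow gave −0.22 for Idi1, −0.32 for Fdft1, −0.0034 for Msmo1 and −0.48 for Hsd17b7, and lineage-negative against whole marrow gave −0.31 for Nr1h2. With quantile scaling the same comparisons gave −0.081 for Acat2, −0.29 for Idi1, −0.40 for Fdft1, −0.073 for Msmo1, −0.071 for Nsdhl, −0.58 for Hsd17b7 and −0.34 for Nr1h2, and Acly was −0.099 against lineage-negative marrow. Array weights gave −0.065 for Hsd17b7 against whole marrow. Leaving out 1 library at a time gave −0.26 to 0.14 for Nr1h3 against whole marrow, and −0.25 to 0.094 for Nsdhl and −0.032 to 0.28 for Idi1 against lineage-negative marrow. Pseudocounts, pairs of groups alone and no filter changed no call among 83 gene results. The causes were not tested.

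Over 12 same-numbered pairs of samples the correlation of deviations ran from −0.29 to 0.17, with 2 pairs over 0.1. Pairs with different numbers are not given beside them, so this does not settle whether replicate numbers pair the samples. With the replicate block 2 members were called higher than both normal groups, and Nr1h3 (0.043, against whole marrow), Nsdhl (0.11) and Scd1 (0.0087, both against lineage-negative marrow) changed sign. The planned count tests could not be run because whole reads were not recovered.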

Other observations

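Summed counts by group of 4 marker lists are given here as values. Neutrophil markers summed to 234343 to 684214 in AML, 214193 to 533777 in whole marrow and 88590 to 147259 in lineage-negative marrow. T cell markers summed to 641 to 2971 in AML, 355 to 549 in whole marrow and 59.1 to 164 in lineage-negative marrow. Megakaryocyte markers summed to 112 to 548 in AML, 598 to 1675 in whole marrow and 2175 to 3310.3 in lineage-negative marrow. Eosinophil and basophil markers summed to 462 to 1849 in AML, 16790 to 38281 in whole marrow and 16642 to 38264 in lineage-negative marrow.

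Of the 4 SREBP-processing genes on the list of other pathway genes, 0 were called in AML against either normal group by limma on either scaling. Their median log2 differences were 0.67 and −0.12, beside 0.67 and 0.02 for all genes. With TMM the median against whole marrow was −0.03. Rnf139 was then lower than in whole marrow (−0.77, limma adjusted p = 0.000794). On the deposited scaling, at an unadjusted p under 0.05, 3 of the 4 were higher than in whole marrow and 0 differed from lineage-negative marrow. No share of all genes is given for these counts.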
